A study of Mus musculus with 3 samples.

Results

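The genes described here encode inhibitors of proteases and were chosen by gene symbol alone: serpins (Serpin), Kazal inhibitors (Spink), Kunitz inhibitors (Spint), cystatins (Cst), tissue inhibitors of metalloproteinases (Timp) and whey acidic protein (WAP) domain inhibitors (Wfdc and Slpi). The symbols matched 124 probes of 104 genes, out of 16593 named genes, and the rule uses no measured value. Of the 104 genes, 5 share the letters of a cystatin but are not protease inhibitors. They are 4 genes of the mRNA cleavage stimulation factor (Cstf1, Cstf2, Cstf2t and Cstf3) and Cstad. The other 99 belong to inhibitor families and are called inhibitor genes below by family. Some of them do not inhibit a protease, such as Serpina6, Serpina7, Serpinf1 and Serpinh1, which were all detected and stay in the counts. A2m, which encodes alpha-2-macroglobulin, was also in the symbol rule, but no probe with 1 gene symbol matched it.

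The 3 samples form 1 group. They are labelled as replicates 1 to 3 of induced delta cells, with day 10 in the series title, and come from pancreata of Rag1-/- mice, which have no mature lymphocytes of the T and B lineages, after injection of an adenovirus into the splenic lobe. Red fluorescent Cherry+ cells were sorted from the acinar fraction after the islets had been removed, the extraction label calls these cells induced beta cells, and the labels leave out the mice's strain background, age and sex and the gene that the virus carried. RNA was read on Illumina MouseRef-8 v2.0 beadchips, with no untreated, islet or acinar control, so the values below are levels and detection calls, not changes.

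Proteases that are made as inactive precursors can be switched on in the wrong place, and secretory tissues make inhibitors against this. In the pancreas the acinar cell packs trypsinogen, the trypsin precursor, together with the Kazal inhibitor Spink1, which blocks trypsin that has become active too early. Serpins trap their target protease by a loop that is cut and then folds into the inhibitor, cystatins plug the active site of cysteine cathepsins, and TIMPs occupy the active site of matrix metalloproteinases.

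A smaller share of the inhibitor genes than of all genes was above background. The deposited detection p compares a probe with the negative controls of its array. Here a probe counts as detected if that p fell below 0.05 on each of the 3 arrays, and 1 such probe is enough to call its gene detected. By this rule 31 of the 104 genes were detected (29.8%), against 40.9% of all 16593 named genes. Without the Cstf genes and Cstad it was 28 of 99 (28.3%). By probe it was 35 of 124 (28.2%), against 33.0% of all 25697 probes, those without a gene symbol included. Among the probes with 1 gene symbol 8015 of 23978 were detected. A gene with more probes has more chances to be called. The 104 genes had 124 probes, where all 16593 named genes had 23978, and the part of this in the gap by gene was not tested. The median level of the 104 genes was 4.42 on the log2 scale, against 4.64 for all named genes. These are counts on 1 set of arrays, with no test of the difference. The families differed widely around that share: 3 of 4 Timp genes were detected, 5 of 8 serpins outside clades A and B, 6 of 16 clade A serpins, 5 of 16 WAP genes, 1 of 4 Spint genes, 2 of 10 Spink genes, 3 of 16 cystatins and 3 of 25 clade B serpins.

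**Figure D1:**
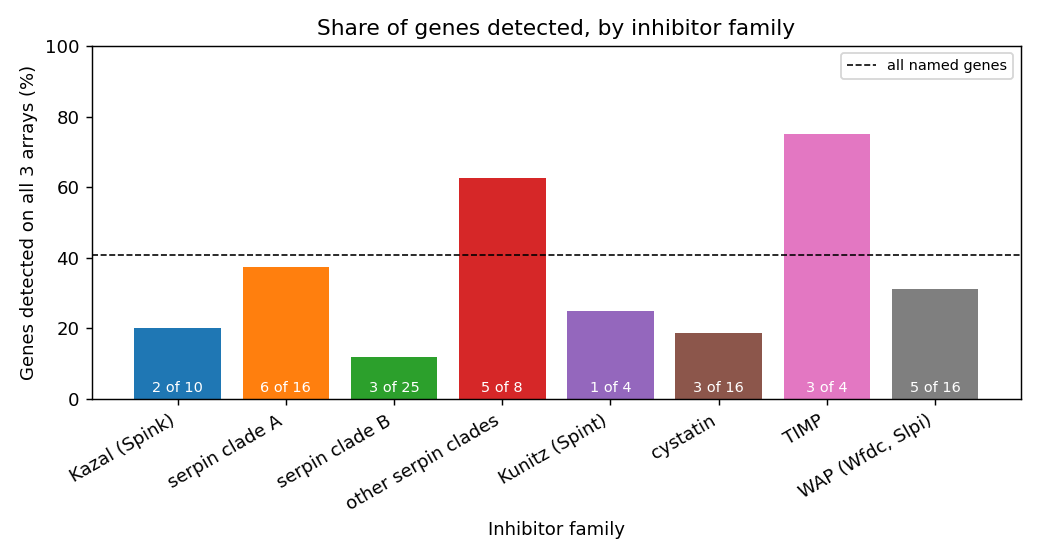
Share of measured genes detected on all 3 arrays (%) in each inhibitor family, with the numbers of genes inside the bars; the dashed line marks the share among all named genes (40.9%). The TIMPs (75%) and the serpins outside clades A and B (62.5%) lie above the line, and clade B serpins (12%) are the lowest bar.

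Levels are log2 intensities after background correction and quantile normalization, taken from a gene's brightest probe. Values given in threes are those of replicates 1, 2 and 3 in that order, and errors are SDs over these 3 arrays (n = 3). A level at the detection limit was 4.83, 4.77 and 4.75. Probes bind with different efficiency, so apart from the medians above, levels are compared only with the same probe on another array. Each array reads many cells together, so fewer cells of a type and less RNA per cell cannot be told apart. The labels do not tell whether each sample was a different animal or a pool, so this spread may be technical.

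**Figure D2:**
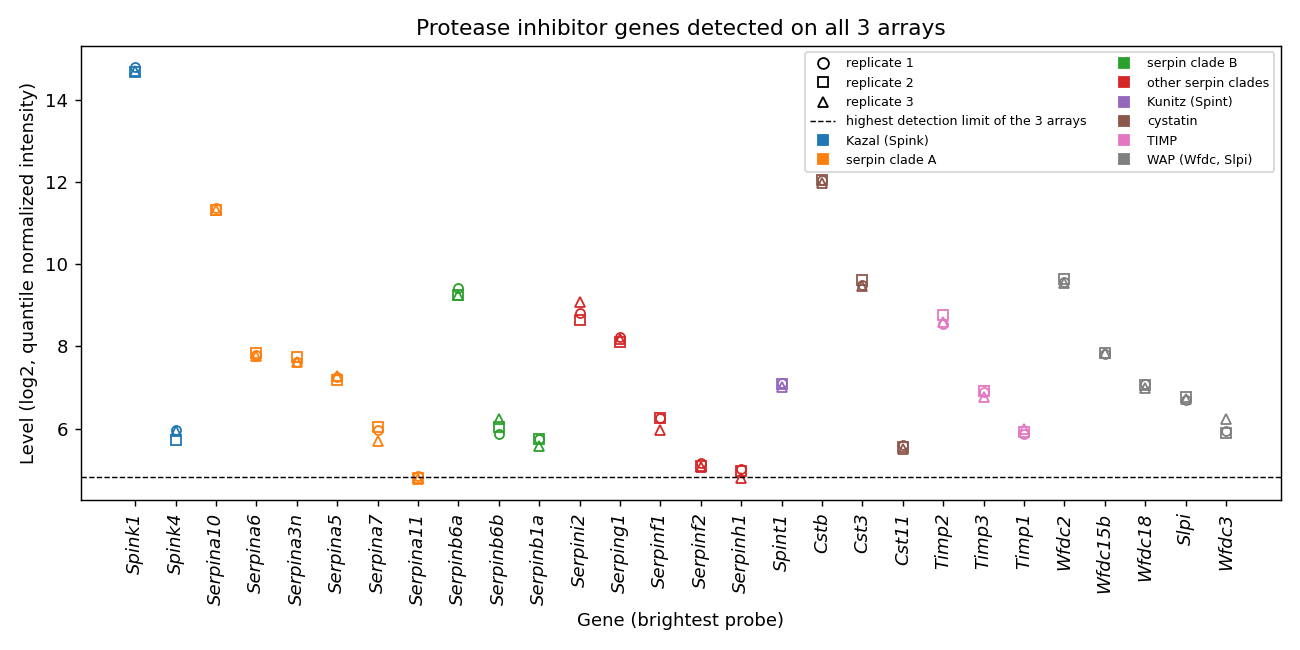
Level of each inhibitor gene detected on all 3 arrays (log2, brightest probe), by family; each symbol is 1 array and the dashed line is the highest of the 3 detection limits (4.83). The 3 symbols of most genes overlap, Serpini2 has the widest gap between them, and Serpina11 lies on the limit.

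The trypsin inhibitor of the acinar cell gave a strong signal. Spink1, the pancreatic secretory trypsin inhibitor, read 14.81, 14.68 and 14.70 (14.73 ± 0.072). The 3 arrays lay within 0.13 log2 units of each other, with replicate 1 highest. Its deposited intensities were 29312, 26180 and 26445, where the brightest probe of each array had 46210, 38877 and 36621. Whether differences between arrays are compressed at such brightness was not tested. The other detected Kazal gene was Spink4, known from intestinal goblet cells, at 5.96, 5.72 and 5.94 (5.87 ± 0.14). The remaining 8 Spink genes, among them Spink10, Spink11, Spink12, Spink14, Spink2 and Spink6, were above background on no array. Spink14, Spink6, Spink12 and Spink11 are the measured members nearest to Spink1 on the chromosome, and Spink1 was the 1 detected gene of these 5.

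The serine proteases of pancreatic juice, which Spink1 meets in the gland, were detected for 12 of 12 measured genes. The elastase Cela2a read 15.28 ± 0.039 and the trypsinogen Try4 15.03 ± 0.012, and the trypsinogen Try5 read 15.07 on each array. Quantile normalization gives a probe of unchanged rank the same value on every array, so such close agreement is set in part by the processing. Trypsinogen genes are near-identical copies whose probes may bind each other's transcripts, so their values are uncertain. The summed level of a list is log2 of the sum of the linear levels of its measured genes, those at background included. It was 17.52, 17.50 and 17.53 for the acinar markers, 12 of 12 detected. For the delta and endocrine markers, 11 of 12 detected, it was 14.69, 14.67 and 14.72. Genes of both lists were thus detected in the same RNA, and which of the sorted cells carried the Spink1 transcript is not shown.

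Clade A serpins are secreted proteins of the blood plasma, made for the most part by the liver. Serpina10, the protein Z-dependent inhibitor of activated coagulation factor X, read 11.37, 11.33 and 11.32 (11.34 ± 0.022). Its arrays differed by 0.042 log2 units, and by 0.13 when they were scaled to a common median in place of quantile normalization. Serpina6, the corticosteroid-binding globulin, which carries a hormone and inhibits no protease, read 7.79, 7.83 and 7.76 (7.79 ± 0.034). Serpina3n, an acute phase inhibitor of leukocyte proteases, read 7.61, 7.75 and 7.62 (7.66 ± 0.079). Serpina5, the protein C inhibitor, read 7.25, 7.18 and 7.29 (7.24 ± 0.056) on 1 probe, while its second probe was at background on every array. All 4 stood well clear of the limit on each array. Serpina7, the thyroxine-binding globulin and also a carrier, read 5.96, 6.05 and 5.71 (5.91 ± 0.18) and was lowest on replicate 3. Serpina11 was detected by a narrow margin, at 4.84, 4.79 and 4.77 with detection p-values of 0.0489, 0.0426 and 0.0401, and was not called at a threshold of 0.01.

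The genes of alpha-1 antitrypsin, the classical liver inhibitor of neutrophil elastase, were not detected. Serpina1b, Serpina1c, Serpina1d and Serpina1e were above background on no array, and Serpina1a on replicate 2 alone (4.51, 4.79 and 4.71, with a detection p of 0.0414 on that array). The mouse copies Serpina1a to Serpina1e are near-identical, so their probes may not tell them apart. Serpina12, Serpina1f, Serpina3b, Serpina4-ps1 and Serpina9 were also at background. Of the markers of liver cells and plasma 2 of 9 were detected, Fga and Ahsg, with Alb, the albumin gene, at background. The summed level of that list was 7.96 to 8.0. The 7 genes that were not called add to this sum, so it does not measure liver RNA alone.

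Clade B serpins work inside cells, where they neutralise proteases that leak from granules and lysosomes. Serpinb6a, a broadly acting member of the clade, read 9.43, 9.25 and 9.26 (9.31 ± 0.097). Serpinb6b, a close relative, read 5.88, 6.03 and 6.24 (6.05 ± 0.18), lowest on replicate 1 and highest on replicate 3. The macrophage markers, 6 of 8 detected with Itgam and Ptprc at background, had a summed level of 11.02, 11.17 and 11.37. Of the 6 detected markers Lyz2 had the array order of Serpinb6b (9.89, 10.05 and 10.47) and the other 5 did not. Their part in the Serpinb6b values was not tested. Serpinb1a, an inhibitor of neutrophil elastase, read 5.75, 5.75 and 5.58 (5.70 ± 0.098). The other 22 clade B genes, among them Serpinb10, Serpinb11, Serpinb12, Serpinb13, Serpinb1b and Serpinb1c, were above background on no array.

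The remaining serpin clades held Serpini2, whose range between arrays was the widest among the member genes detected on all 3 (with median scaling that was Serpinb6b, at 0.51 against 0.48). It is a serpin known from the exocrine pancreas, is also called pancpin, and read 8.82, 8.65 and 9.08 (8.85 ± 0.22). Replicate 3 stood 0.43 log2 units above replicate 2 and was the highest array under each of the 5 scalings tried. The summed acinar markers are given above, and the part of acinar content in the Serpini2 values was not tested. Serping1, the C1 inhibitor of the complement system, read 8.23, 8.11 and 8.18 (8.17 ± 0.060). Serpinf1, pigment epithelium-derived factor, a serpin without protease targets, read 6.25, 6.25 and 5.96 (6.15 ± 0.16), lowest on replicate 3. Serpinf2, the plasmin inhibitor alpha-2-antiplasmin, read 5.17, 5.10 and 5.06 (5.11 ± 0.053), with 2 of its 3 probes detected. Serpinh1, the collagen chaperone HSP47, which inhibits no protease, read 5.01, 4.96 and 4.80 (4.92 ± 0.11), close to the limit. Serpinf2 and Serpinh1 were not called at a threshold of 0.01. Serpinc1, which encodes antithrombin, Serpind1, heparin cofactor II, and Serpini1, the neuronal serpin neuroserpin, were above background on no array.

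Serpini2 and Serpini1, the members of clade I, lie near each other on chromosome 3 with other genes between them, and the pair gave opposite calls. Serpini1 missed the threshold by little, with detection p-values of 0.0614, 0.0727 and 0.0777 and levels of 4.78, 4.68 and 4.67. The sequences before their starts are shown because they belong to this pair of paralogs. They are RefSeq's for GRCm38.p6, 250 bases before to 50 after the start, read on the gene's own strand, with each match to the E-box CANNTG in capitals.
Serpini2 promoter (chr3:75270029-75270328, minus strand): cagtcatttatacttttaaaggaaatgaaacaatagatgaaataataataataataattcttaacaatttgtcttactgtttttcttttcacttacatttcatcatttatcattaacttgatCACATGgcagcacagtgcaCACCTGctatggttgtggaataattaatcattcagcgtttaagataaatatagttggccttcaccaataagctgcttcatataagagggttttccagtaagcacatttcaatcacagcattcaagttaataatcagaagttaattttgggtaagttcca
Serpini1 promoter (chr3:75557243-75557542, plus strand): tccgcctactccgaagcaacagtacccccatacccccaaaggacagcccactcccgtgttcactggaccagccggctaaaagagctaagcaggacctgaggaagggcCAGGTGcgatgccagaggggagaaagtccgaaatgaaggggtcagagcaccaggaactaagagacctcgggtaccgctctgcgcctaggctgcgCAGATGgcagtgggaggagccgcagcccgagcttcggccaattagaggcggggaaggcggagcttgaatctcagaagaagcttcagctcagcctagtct
Each window held 2 matches to CANNTG, the motif that basic helix-loop-helix factors such as Ptf1a can bind, and 0 to TGGGAA, a motif of the Ptf1a partners Rbpj and Rbpjl. Both strands were searched, and no match overlapped another. Promoters were held for 20 of the 28 detected inhibitor genes and for 55 of the other 71. Of the 24 promoters of the first set 58.3% held CANNTG, 33.3% TGGGAA and 16.7% both. Of the 64 promoters of the second set the shares were 65.6%, 21.9% and 17.2%, and of all 32851 promoters 72.3%, 25.6% and 19.0%. The share with both motifs was thus close among the 3 sets. A match describes letters and is not evidence of binding.

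Many of the inhibitor genes stand in clusters of neighbours that arose by duplication, and detection was uneven along them. The order of genes was taken from the RefSeq annotation of GRCm38.p6, and members no more than 1000000 bases apart were counted as neighbours. In the 8 clusters of at least 3 measured members, 16 of 75 genes were detected (21.3%), against 12 of the 24 inhibitor genes outside them (50%) and 40.9% of all named genes. The clade B cluster on chromosome 1, from Serpinb5 to Serpinb8, had 0 of 11 genes detected, while that on chromosome 13 had 3 of 14, among them Serpinb1a and Serpinb6a at its ends. On chromosome 12 the clade A cluster had 5 of 15 detected, with Serpina10 and Serpina6 at one end and the undetected Serpina1 copies next to them. The stefin A cluster on chromosome 16, from Csta1 to Cstdc6, had 0 of 5, and the secreted cystatins on chromosome 2, from Cstl1 to Cst10, had 2 of 8. Copies within a cluster resemble each other in sequence, which the probes may not resolve.

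**Figure D3:**
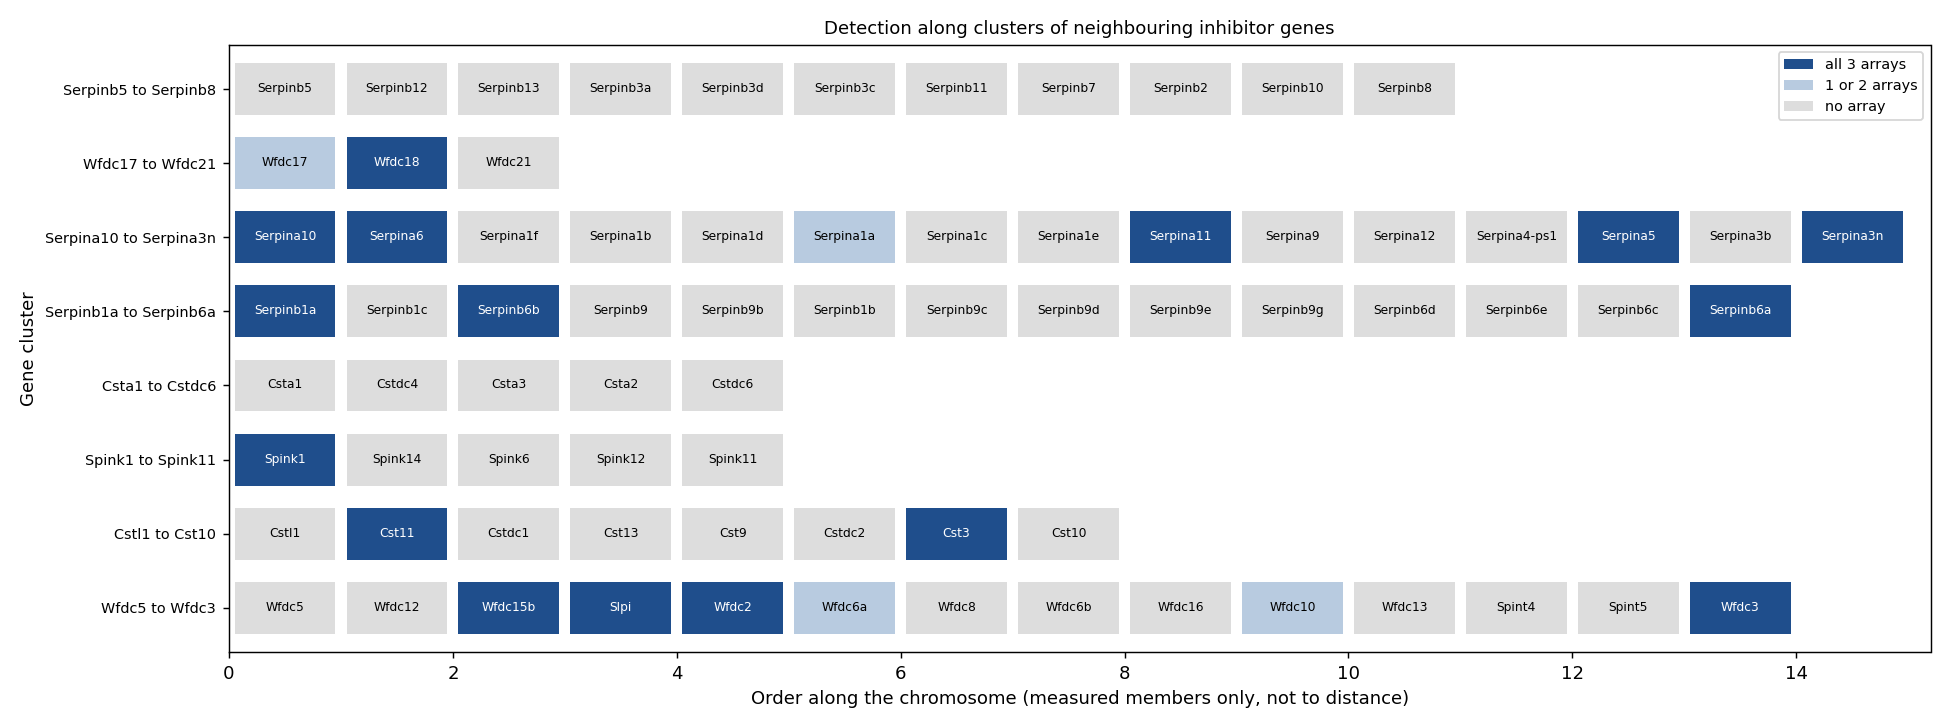
Detection of measured inhibitor genes in the 8 clusters of neighbours, in their order along the chromosome (not to distance); dark blue marks genes detected on all 3 arrays, light blue on 1 or 2, grey on none. The clusters from Serpinb5 to Serpinb8 and from Csta1 to Cstdc6 hold no dark box, and Wfdc15b, Slpi and Wfdc2 form a run of 3.

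Kunitz inhibitors of the Spint family guard epithelial surfaces against membrane-anchored serine proteases. Spint1, also called HAI-1, the inhibitor of matriptase and of the activator of hepatocyte growth factor, read 7.12, 7.08 and 7.02 (7.07 ± 0.047). The 3 arrays lay within 0.093 log2 units. Spint2, Spint4 and Spint5 were above background on no array, Spint2 on neither of its 2 probes. Of the membrane-linked and activator proteases, 5 of 10 were detected. Hgfac, the growth factor activator that Spint1 inhibits, read 10.14 ± 0.055, Prss8, prostasin, 9.33 ± 0.10, and Hpn, hepsin, 7.86 ± 0.22. St14, the gene of matriptase, and Tmprss2 completed the 5.

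Cystatins inhibit the cysteine cathepsins of the lysosome. Cstb, stefin B, which acts in the cytosol, read 12.05, 12.05 and 11.97 (12.02 ± 0.045). Cst3, the secreted cystatin C, read 9.49, 9.61 and 9.47 (9.52 ± 0.075). Both were far above the limit on each array. Cst11, a cystatin of the male reproductive tract, read 5.61, 5.56 and 5.50 (5.55 ± 0.055) on 1 probe and was at background on its other probe. Cst7, cystatin F of leukocytes, was above background on replicate 3 alone (4.73, 4.60 and 4.80, with a detection p of 0.0301 on that array). The other 12 cystatin genes, among them Cst10, Cst13, Cst6, Cst9, Csta1 and Csta2, were above background on no array. Of their target class, the cysteine cathepsins and legumain, 7 of 11 genes were detected. Ctsb, cathepsin B, which can activate trypsinogen, read 12.88 ± 0.038, Ctsc, cathepsin C, 9.34 ± 0.055, and Ctsh, cathepsin H, 9.22 ± 0.061.

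Tissue inhibitors of metalloproteinases were detected for 3 of 4 genes. Timp2, which also helps Mmp14 to activate Mmp2, read 8.55, 8.76 and 8.60 (8.64 ± 0.11). Timp3, which binds to the extracellular matrix and also inhibits Adam17, read 6.90, 6.91 and 6.78 (6.86 ± 0.072) on 1 probe, with the other at background. Timp1, the inducible member, read 5.87, 5.92 and 5.99 (5.93 ± 0.057), and its second probe, also detected, was highest on replicate 2 (5.87, 6.04 and 5.68). The arrays' order for Timp1 therefore differed between its probes. Timp4 was above background on no array. Of 20 measured metalloproteases 8 were detected, close to the share of all genes. Mmp14, the membrane-bound collagenase, read 9.06 ± 0.080, Adam17, which sheds tumour necrosis factor, 8.20 ± 0.15, and Adam9 6.70 ± 0.18. Mesenchymal cells are a known source of TIMPs. Of their markers 4 of 11 were detected, Dcn (7.86 ± 0.13), Acta2 (5.86 ± 0.047), Col3a1 (5.54 ± 0.042) and Col1a2 (4.85 ± 0.066, close to the limit). The other 7, with Col1a1 and Vim among those at background on every array, were not called. The summed level of all 11 was 9.06, 9.11 and 9.01. The part of mesenchymal cells in the TIMP values was not tested.

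WAP domain inhibitors act at mucosal surfaces. Wfdc2, also called HE4 and made by many epithelia, read 9.56, 9.63 and 9.54 (9.58 ± 0.049) on 1 probe, with the other at background. Wfdc15b read 7.81, 7.84 and 7.85 (7.84 ± 0.020). Its second probe, also detected, varied more between the arrays, at 6.53, 6.36 and 6.68 (6.52 ± 0.16), and was lowest on replicate 2. Wfdc18, an extracellular protease inhibitor, read 7.09, 7.05 and 7.0 (7.05 ± 0.043). Slpi, the secretory leukocyte protease inhibitor, which blocks neutrophil elastase, read 6.69, 6.77 and 6.71 (6.72 ± 0.041). These 4 genes stood well above the limit on each array. Wfdc3 read 5.94, 5.90 and 6.23 (6.02 ± 0.18) and was highest on replicate 3. Wfdc6a was above background on replicates 1 and 2 (5.34, 5.0 and 4.69), Wfdc10 on replicates 1 and 3 (5.19, 4.76 and 5.23, with a detection p of 0.0501 on replicate 2), and Wfdc17 on replicate 3 alone (4.69, 4.56 and 4.80). The other 8 WAP genes, among them Wfdc1, Wfdc12, Wfdc13, Wfdc16, Wfdc21 and Wfdc5, were above background on no array. Duct cell markers were detected for 4 of 6 genes, Muc1 (8.47 ± 0.073), Krt7 (7.98 ± 0.099), Cftr (6.76 ± 0.065) and Sox9 (5.73 ± 0.11). Krt19 and Car2 were at background. The part of duct cells in the WAP values was not tested.

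Leukocyte serine proteases, a class in which Slpi, Serpinb1a and Serpina3n have known targets, were mostly at background, with 1 of 9 genes detected. That gene was Elane, neutrophil elastase, at 5.02, 4.84 and 4.86 (4.91 ± 0.097), near the limit and not called at a threshold of 0.01. Of the neutrophil and mast cell markers 1 of 8 was detected, Csf3r, with S100a8 and S100a9 at background. Coagulation and plasminogen genes, targets of many plasma serpins, were detected for 4 of 14. These were F2, prothrombin, at 7.31 ± 0.10, Plau, urokinase, at 5.86 ± 0.16, Proc, protein C, at 5.75 ± 0.11, and the urokinase receptor gene Plaur. Over all target classes 37 of 76 genes were detected (48.7%), again beside 40.9% of all genes. That list holds Plaur and F3, the tissue factor gene, which encode partners of proteases, and without them it was 36 of 74. Caspases, a class of proteases that cystatins and TIMPs do not inhibit, were detected for 6 of 7 genes, with Casp2 at 9.69 ± 0.049, Casp9 at 7.62 ± 0.12 and Casp1 at 7.11 ± 0.013.

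Of the genes that matched by letters alone, Cstf1 (8.82 ± 0.11), Cstf2 (8.82 ± 0.14) and Cstf3 (8.01 ± 0.048) were detected. They encode subunits of the factor that cuts precursor mRNA before the poly(A) tail is added. Cstf2t and Cstad were above background on no array.

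The probes of the 104 genes varied between the arrays about as much as other probes did. The median SD of their 35 detected probes, 4 of which belong to Cstf genes, was 0.0724 log2 units. It was 0.0872 for all 8486 probes detected on all 3 arrays. A test in limma set each probe's variance over the 3 arrays against the variance that probes of its level usually have, with Benjamini-Hochberg adjustment over the 8486 probes. It called 0 of the 35, and 0 of all probes (0.00%). At an unadjusted p under 0.05 it held 1 of the 35 (2.86%), beside 407 of all probes (4.80%). That probe was Serpini2's, with an adjusted p of 0.959 in limma (0.0112 before adjustment). The 4 next widest ranges among detected genes, those of Serpinb6b (0.37), Serpina7 (0.34), Wfdc3 (0.33) and Serpinf1 (0.29), had unadjusted p-values of 0.151, 0.187, 0.164 and 0.197 in the same limma test. With 3 arrays this test has little power for differences as small as these, and also for clearly larger ones, so a miss does not show that levels were equal.

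**Figure D4:**
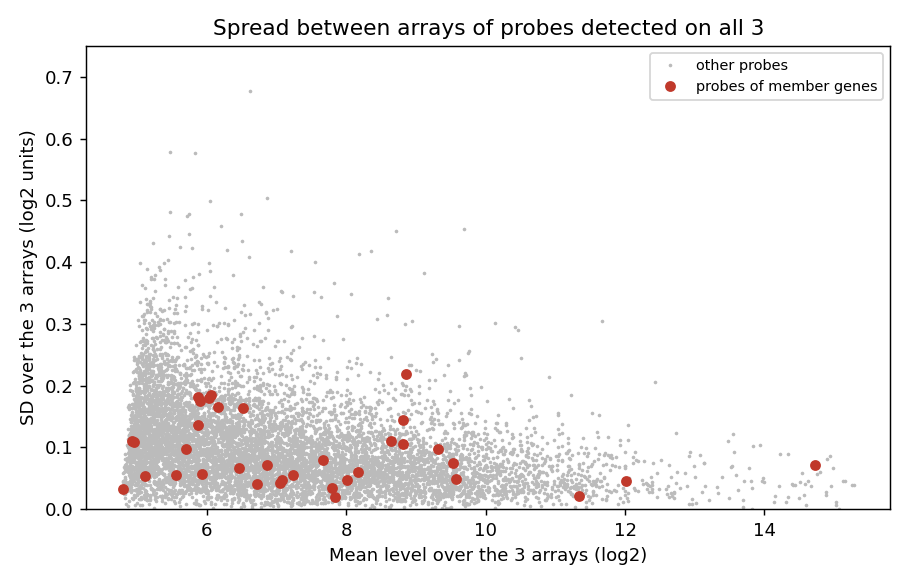
SD over the 3 arrays against mean level (both log2) of the 8486 probes detected on all 3 arrays; red points are the 35 probes of the chosen genes, grey points all others. The red points lie within the grey cloud, and the highest of them, at an SD of 0.22, is Serpini2.

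Of the 19 genes with more than 1 probe, 3 had all probes detected, 5 some and 11 none. The 5 with unlike probes were Cst11, Serpina5, Serpinf2, Timp3 and Wfdc2, so 1 probe at background cannot establish that a gene was silent. The arrays detected 35.6% to 37.8% of the 25697 probes. Of the other cell type marker lists, 2 of 9 endothelial genes, 4 of 7 platelet and red cell genes and 1 of 12 lymphoid genes were detected.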

How the data were processed

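The authors deposited, per the file headers, an average bead intensity and a detection p-value per probe and array. The 3 intensity columns share a mean of 211.8, so they had been scaled before deposit. A second deposited table holds processed intensities of 1 common distribution, with its target unknown. No source used here names the scanner software. Genes were named from a platform annotation (1 symbol for 23978 of 25697 probes, 1719 unnamed); all 104 members matched RefSeq by Entrez identifier. Intensities were corrected by normexp with an offset of 16, using negative controls inferred from the detection p-values, quantile normalized and taken to log2 (neqc, limma 3.58.1, R 4.3.3). The spread test used limma's eBayes with a trend and was tested on simulated data. Alternatives were other thresholds, scalings, offsets and probe rules, the authors' table, and each replicate left out.

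The symbol rule uses no measured value, but the group of genes and the lists were chosen with earlier results of these data known. By rule every gene detected on all arrays was named with its level, per-array values were given for the 4 brightest genes of each family, those detected on 1 or 2 arrays and the 5 with the widest range among genes detected on all arrays, others were added for completeness, and undetected genes were named up to 6 per family in alphabetical order or where known from the pancreas. A search of protein motifs planned at the outset was not run, and a promoter search was added after seeing the data. No column of the tables was left unused. The number of arrays limits the precision.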

Additional observations from a re-analysis of the deposited data

How the results depend on the processing

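The count of detected genes stayed within 1.5 times its value of 31 under each alternative run. It was 28 at a detection p of 0.01 (Serpina11, Serpinf2 and Serpinh1 lost), 29 after Benjamini-Hochberg adjustment of the detection p on each array (Serpina11 and Serpinh1 lost), 33 when 2 of 3 arrays sufficed (Wfdc10 and Wfdc6a gained), 31 by the brightest probe alone and 31 to 32 with a replicate left out. The share of all genes moved with it, from 35.4% to 44.7%. The 37 target proteases ranged from 34 to 41. The spread test (limma) called 0 probes of the 104 genes under all alternatives run. Their smallest adjusted p in limma was 0.433 when all probes were tested and 0.558 with median scaling. In these runs 22 and 36 probes were called in all. An unadjusted p under 0.05 in limma held for 7 of the 124 member probes when all probes were tested, beside 1315 of all 25697. Under median scaling it held for 2 of 35 member probes, beside 522 of 8486. With median scaling, where array medians differed by 0.159 log2 units, mean levels of all 31 genes moved by less than their SD, but 12 of the 31, Serpinf1 among them, had another highest array. Narrow ranges widened, from 0.093 to 0.23 for Wfdc2, from 0.04 to 0.2 for Wfdc15b and from 0.079 to 0.19 for Slpi. Another offset (23 of 31 moved by more), no background correction (28) and the authors' table (24) shift the scale of levels. Counting without the Cstf genes and Cstad, and by probe, were chosen after seeing the data. No paired analysis was possible because there is only 1 group.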
